A study of Mus musculus with 15 samples.

Results

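The 35 genes described here encode the machinery that burns fatty acids, the PPAR receptors that switch much of it on, and further targets of those receptors. They were chosen by name: every non-control probe that carries the name of a listed gene was taken, and renamed genes were resolved through the transcript accession of the probe. All 35 genes were found, on 53 probes, among 27751 genes or unnamed probes measured with 41174 probes. The files list Hao2 under its older name, Hao3. For a gene with several probes the probe with the highest mean level was used.

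Fatty acids enter cells with the help of the membrane protein CD36 and are carried inside by fatty acid-binding proteins such as FABP1 and FABP2. Acyl-CoA synthetases activate them, the carnitine shuttle (CPT1, SLC25A20 and CPT2) moves them into mitochondria, and β-oxidation shortens them to acetyl-CoA, while peroxisomes run a related pathway. PPARα, PPARγ and PPARδ are nuclear receptors that sense fatty acids and activate many of these genes, with PGC-1α, the product of Ppargc1a, as a coactivator. Colon epithelium is known for using butyrate, a short-chain fatty acid made by gut bacteria, as a fuel.

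The RNA came from laser-microdissected colon cells of male Apc(+/Min-FCCC) mice, in which 1 allele of Apc, a brake on Wnt signalling, is mutated and which were sorted by colonoscopy at 6 to 8 weeks of age. Treated adenomas (4 arrays) came from tumor-bearing mice that ate chow with 300 ppm sulindac, a cyclooxygenase inhibitor, and 100 ppm atorvastatin, a statin, for 7 days. Untreated adenomas (3 arrays) came from tumor-bearing mice on plain chow. Normal epithelium was labelled as coming from mice given 100 ppm atorvastatin alone for 7 days, either tumor-bearing (4 arrays) or tumor-free (4 arrays). The C57BL/6J background is labelled for all arrays but those of the tumor-bearing epithelium. The protocol text places tumor-bearing mice on plain chow or on both drugs, which conflicts with the atorvastatin label of that group; the labels were followed. All mice thus carried the Apc mutation, no epithelium came from mice without a drug, and each contrast of adenoma with epithelium also differs in drug. Sulindac and atorvastatin were combined in a single diet, and their separate effects cannot be told apart.

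Levels are log2 fluorescence intensities relative to the 75th percentile of the array, so 0 marks that percentile and a difference of 1 is a doubling. On each array 56.5% to 75.5% of probes were well above background. Several arrays of a group were near-identical (6 pairs, SD of the log2 difference 0.08 to 0.17, Pearson's r 0.995 to 0.998). They differed by less than the spot noise of the background-subtracted signal (0.19 to 0.22), although by more than that of the processed signal (0.06 to 0.08), and were counted as 1 sample. Among the remaining 15 same-group pairs this SD was 0.59 to 1.11. This left 2 treated adenoma samples (array 1; arrays 2, 3 and 4), 2 untreated adenoma samples (arrays 1 and 2; array 3), 3 tumor-bearing epithelium samples (arrays 1 and 3; array 2; array 4) and 3 tumor-free epithelium samples (array 1; array 2; arrays 3 and 4). Array 2 of the tumor-bearing and array 2 of the tumor-free epithelium differed by only 0.18 (spot noise 0.18, r 0.995), although their labels name different mice. Both were kept, and counts without them are given below. Array 4 of the tumor-bearing epithelium stood apart from the others of its group (SD 1.05 to 1.11). The labels speak of biological replicates without naming animals, so p-values measure the spread between these samples only.

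PPARs bind DNA as partners of RXR at direct repeats of the unit AGGTCA with 1 base between the copies. The 300 bases around each gene's start (250 before and 50 after it, RefSeq, GRCm38.p6) were searched on both strands; 31 of the 35 members matched, with 35 promoters, and Acaa2, Decr1, Cpt1b and Angptl4 had no entry. The perfect repeat was in no member promoter and in 0.0396% of all 32851 promoters. With the fourth base of each unit left free, the repeat was found in Fabp1 alone among the members, against 0.381% of all promoters. A single AGGTCA unit, which also occurs within the Fabp1 repeat, was in 8 of 35 member promoters (22.9%) and in 16.3% of all promoters. The stretch around the match (the repeat for Fabp1, and for Pparg the unit of 1 of its 2 promoters with a match) is shown for each gene 5′ to 3′ on the strand of the gene, with the match in capitals (TGACCT is the unit on the opposite strand). The Fabp1 repeat spans positions -67 to -55 from the start. Of these members, Cpt1a, Cd36, Acadm, Acadvl, Echs1 and Pparg were called lower in adenoma, as were 19 of all 35 members (below). A link between the unit and the level was not tested.
Fabp1, chr6:71199792-71199844: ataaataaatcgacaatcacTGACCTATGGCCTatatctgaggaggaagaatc
Cpt1a, chr19:3323187-3323232: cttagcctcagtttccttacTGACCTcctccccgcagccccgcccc
Cd36, chr5:17836099-17836144: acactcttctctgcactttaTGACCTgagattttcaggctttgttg
Acadm, chr3:153944867-153944893: gTGACCTtcgggctccggtgacactgg
Acadvl, chr11:70015490-70015535: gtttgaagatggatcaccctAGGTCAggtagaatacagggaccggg
Echs1, chr7:140116479-140116524: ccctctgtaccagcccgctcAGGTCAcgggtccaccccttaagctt
Pparg, chr6:115361096-115361141: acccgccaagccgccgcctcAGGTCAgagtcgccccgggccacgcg
Hao2, whose level differed most, held none of these letters; its 250 bases before the start are given for comparison.
Hao2, chr3:98893231-98893480: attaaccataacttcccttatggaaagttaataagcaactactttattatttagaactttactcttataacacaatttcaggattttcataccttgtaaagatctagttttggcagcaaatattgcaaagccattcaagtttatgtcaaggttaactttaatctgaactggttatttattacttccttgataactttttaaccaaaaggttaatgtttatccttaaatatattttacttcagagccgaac
A match is a run of letters and does not show binding, and its absence says nothing of what lies outside the window.

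The comparison of all adenoma with all epithelium asked how adenoma cells differ from normal colon epithelium. Of the 35 members, all of which were measured well enough to be tested, 19 were lower and 1 was higher in adenoma (limma, Benjamini-Hochberg adjusted p under 0.05). Over all 18913 features tested, 12.6% were called lower and 9.14% higher. Without overlap between the 2 sides, 12 members were lower and 1 was higher, against 1918 and 1344 of all features tested. The median log2 difference of the members was -1.20, against -0.17 over all features tested, and 30 of the 35 differences were below 0. Fatty acid uptake, the carnitine shuttle, the mitochondrial cycle, peroxisomal oxidation and 2 receptors were all represented among the lower genes. Another scaling moved the median over all features to -0.03 (quantile normalization), where the members' median was -1.07 and 16 members were called lower and 2 higher. In microdissected bulk RNA, fewer cells of a type and less RNA per cell cannot be told apart.

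These counts depended on single samples. Without untreated adenoma array 3 the count of called members was 13 in place of 20, and without treated adenoma array 1 it was also 13. Without the near-identical pair of epithelium arrays across groups it was 10, with 9 lower and 1 higher. The share of all features called then fell too, from 21.8% to 12.8%, and it also fell without either adenoma array. In all 3 cases the difference of each of the 20 genes kept its direction. Hao2, Fabp2, Cpt1a, Acaa2, Decr1, Ehhadh, Ppara and Pparg were called under all alternatives in which they were tested.

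Some marker lists moved with this contrast, in which 12.6% of all features tested were called lower and 9.14% higher. No macrophage marker (of 9) and no leukocyte marker (of 6 tested) was called. Of 8 fibroblast markers 2 were higher, and of 8 endothelial markers 1 was higher. Of 4 hepatocyte markers tested, 1 was higher and 1 lower. Of 13 markers of absorptive colonocytes, the mature surface cells of the colon, 11 were lower in adenoma, with a summed level (linear scale, relative to the 75th percentile) of 30.8 to 95.4 in treated and 92.1 to 96.1 in untreated adenomas, against 263 to 623 in tumor-bearing and 519 to 605 in tumor-free epithelium. Of 10 Wnt target genes, which mark adenoma cells, 8 were higher. Of 8 smooth muscle markers, 5 were lower, with summed levels of 32.5 to 35.8 in treated and 15.7 to 16.9 in untreated adenomas, against 62.4 to 85.3 in tumor-bearing and 36.4 to 79.2 in tumor-free epithelium. Of 9 general epithelial markers, 4 were lower and all 9 were above background on every array. Of 8 markers of adipocytes, cells that are rich in Cd36 and Pparg, 4 were tested; none was called, and all 4 differences were below 0 (median -0.98). Their summed level was 9.96 to 12.1 in treated and 4.69 to 6.13 in untreated adenomas, against 5.87 to 38.9 in tumor-bearing and 11 to 47.2 in tumor-free epithelium. Adipoq, Lep, Plin1 and Cfd were not well above background on any untreated adenoma array, and Lep on no array of any group. The part of cell types in the members' differences was not tested.

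**Figure D1:**
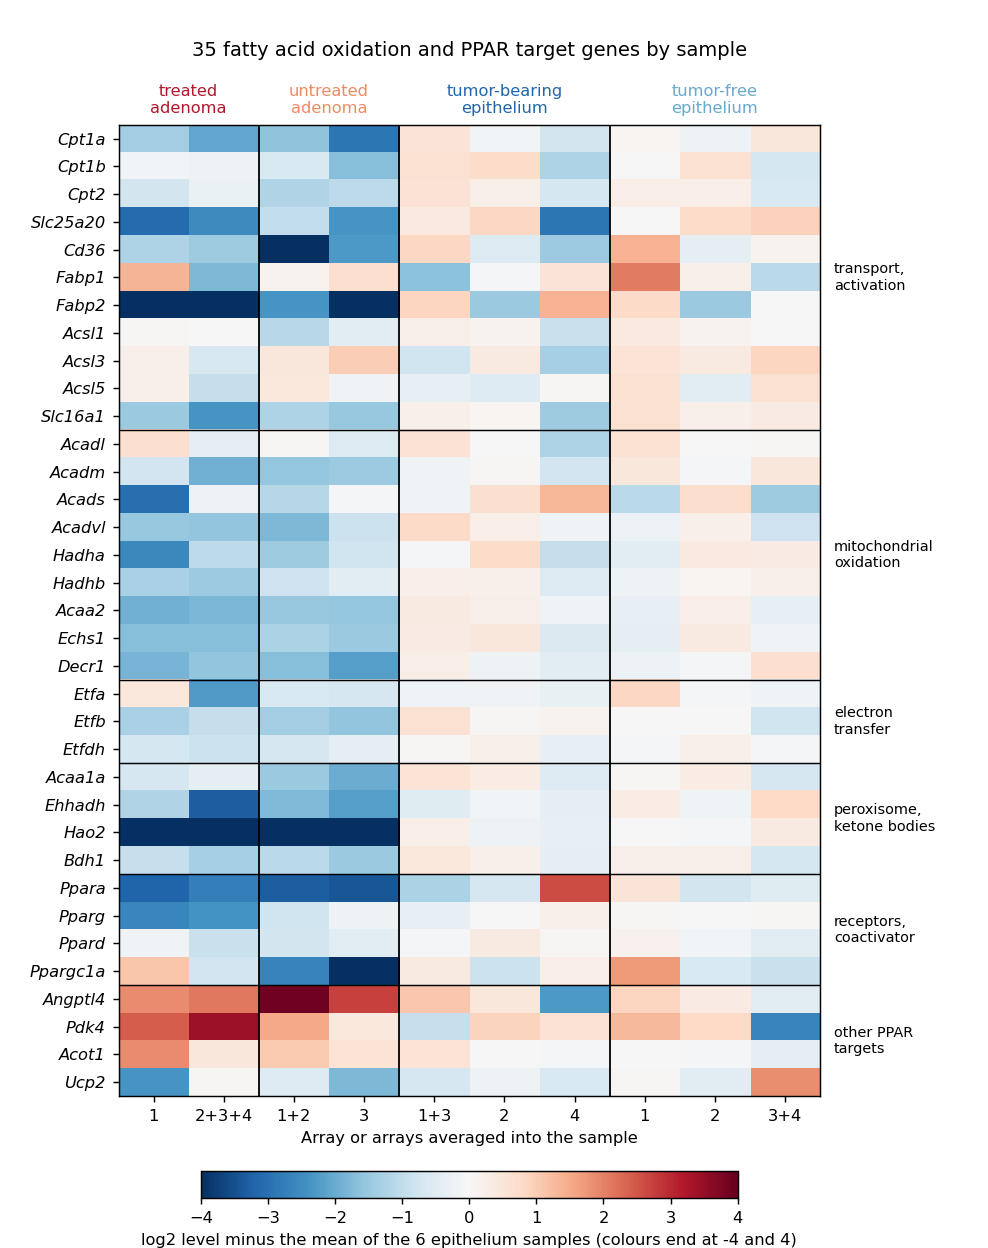
Heat map of the 35 members (rows, grouped by role) in the 10 samples (columns, with the arrays averaged into each). Colour is the log2 level of a sample minus the mean of the 6 epithelium samples, with colours ending at -4 and 4; Hao2 is at the lower colour limit in all 4 adenoma samples, while Angptl4 is higher in each of them than in any epithelium sample.

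Among the 11 genes of uptake, binding, activation and transport, 5 were lower in adenoma and none was higher. Fabp2, the intestinal fatty acid-binding protein, had levels of -5.04 and -3.27 in treated and 2.17 and -1.24 in untreated adenomas, against 5.39, 3.05 and 5.91 in tumor-bearing and 5.28, 3.03 and 4.52 in tumor-free epithelium. All 4 adenoma samples lay below all 6 epithelium samples, and the treated adenomas lowest. The difference was -6.37 ± 0.82 (SE; 83-fold lower; adjusted p = 0.000504, limma). Both Fabp2 probes gave nearly the same difference (-6.37 and -6.46).

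Cpt1a encodes the liver-type carnitine palmitoyltransferase that controls entry of long-chain fatty acids into mitochondria. Its levels were 2.51 and 1.81 in treated and 2.28 and 1.00 in untreated adenomas, against 4.42, 3.77 and 3.16 in tumor-bearing and 3.99, 3.69 and 4.36 in tumor-free epithelium. The groups did not overlap, and Cpt1a was 3.98-fold lower in adenoma (log2 difference -1.99 ± 0.39 SE, adjusted p = 0.00538, limma). Slc25a20, the carrier that exchanges acylcarnitines across the inner membrane, was 4.70-fold lower (-2.23 ± 0.69, adjusted p = 0.0446). It lay at -1.93 and -1.38 in treated and 0.18 and -1.19 in untreated adenomas, against 1.54, 1.99 and -1.75 in tumor-bearing and 1.17, 1.89 and 2.07 in tumor-free epithelium. Array 4 of the tumor-bearing epithelium thus fell among the adenomas; without it the difference was -2.82 (adjusted p = 0.000887), and without the near-identical pair it was -1.84 (adjusted p = 0.14).

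Cd36, the fatty acid translocase, lay at -2.87 and -3.07 in treated and -5.89 and -3.94 in untreated adenomas, against -0.79, -2.18 and -3.10 in tumor-bearing and -0.25, -2.00 and -1.50 in tumor-free epithelium. Only array 4 of the tumor-bearing epithelium overlapped the adenomas, and the difference was -2.31 ± 0.57 (adjusted p = 0.0178, limma). Slc16a1, the monocarboxylate transporter that carries butyrate and lactate, was 3.14-fold lower (-1.65 ± 0.39, adjusted p = 0.0144), and its 3 probes agreed in direction (-1.65 to -1.92). The remaining 6 genes of this role, Cpt1b, Cpt2, Fabp1, Acsl1, Acsl3 and Acsl5, were not called. Their differences ran from -0.81 for Cpt2, the inner-membrane partner of CPT1 (adjusted p = 0.128), to 0.25 for the acyl-CoA synthetase gene Acsl3 (adjusted p = 0.66). Fabp1, the liver-type fatty acid-binding protein and the gene with the repeat in its promoter, differed by 0.09 ± 0.77 (adjusted p = 0.941) and was well above background on 5 of 7 adenoma and 3 of 8 epithelium arrays. The 2 Cpt1b probes disagreed in sign (-0.66 and 0.55).

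Of the 9 genes of mitochondrial β-oxidation, 7 were lower in adenoma. Acaa2, the thiolase that releases acetyl-CoA, had levels of 2.72 and 2.81 in treated and 3.14 and 3.09 in untreated adenomas, against 5.0, 4.87 and 4.46 in tumor-bearing and 4.32, 4.90 and 4.31 in tumor-free epithelium. Its adenoma samples spanned less than 0.5 and none came near an epithelium sample; the gene was 3.26-fold lower (-1.70 ± 0.28 SE, adjusted p = 0.00214, limma). Decr1, the dienoyl-CoA reductase needed for unsaturated fatty acids, lay at -2.72 and -2.46 in treated and -2.57 and -3.08 in untreated adenomas, against -0.62, -1.09 and -1.29 in tumor-bearing and -1.12, -0.90 and -0.20 in tumor-free epithelium. It was 3.58-fold lower with no overlap (-1.84 ± 0.31, adjusted p = 0.00269).

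The enoyl-CoA hydratase gene Echs1 (-1.54 ± 0.32 SE, adjusted p = 0.00769, limma) and the very long-chain dehydrogenase gene Acadvl (-1.43 ± 0.35, adjusted p = 0.0168) were also lower without overlap. Acadm, the medium-chain dehydrogenase gene, was 2.68-fold lower (-1.42 ± 0.34, adjusted p = 0.0148), its treated adenoma array 1 at the same level as array 4 of the tumor-bearing epithelium (2.51 each). The trifunctional protein genes Hadha (-1.47 ± 0.45, adjusted p = 0.0426) and Hadhb (-1.0 ± 0.30, adjusted p = 0.0376) were lower with overlap between the groups. For Hadha the other 2 probes gave smaller differences, -0.51 and -0.32. The long-chain dehydrogenase gene Acadl differed by -0.06 (adjusted p = 0.933) and the short-chain dehydrogenase gene Acads by -1.11 (adjusted p = 0.23); neither was called. Of the electron transfer genes, which pass electrons from these dehydrogenases to the respiratory chain, Etfb was 2.47-fold lower without overlap (-1.30 ± 0.30, adjusted p = 0.0133). Etfa (-0.78, adjusted p = 0.274) and Etfdh (-0.66, adjusted p = 0.111) were not called.

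All 4 genes of peroxisomal oxidation and ketone bodies were lower in adenoma. Hao2, a peroxisomal oxidase of 2-hydroxy fatty acids, showed the widest separation of any member. Its levels were -8.28 and -8.03 in treated and -2.90 and -4.30 in untreated adenomas, against 4.75, 4.25 and 4.16 in tumor-bearing and 4.48, 4.45 and 4.84 in tumor-free epithelium. The 6 epithelium samples lay within 0.7 of each other, and no adenoma sample came within 7 of them. Its signal was well above background on none of the 4 treated adenoma arrays, on all 3 untreated adenoma arrays and on all 8 epithelium arrays; the probe lies on chromosome 3 from 98670176 to 98670235 in mm7. The measured log2 difference was -10.37 ± 0.34 SE (adjusted p = 2.06e-07, limma), in which the treated level rests on readings not well above background.

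Ehhadh, the bifunctional enzyme of the peroxisomal pathway, lay at 0.32 and -1.77 in treated and -0.23 and -0.68 in untreated adenomas, against 1.05, 1.42 and 1.18 in tumor-bearing and 1.82, 1.36 and 2.34 in tumor-free epithelium. The groups did not overlap and the gene was 4.34-fold lower (-2.12 ± 0.43 SE, adjusted p = 0.0065, limma). Bdh1, the mitochondrial enzyme that interconverts the ketone bodies acetoacetate and 3-hydroxybutyrate, was 2.30-fold lower without overlap (-1.20 ± 0.33, adjusted p = 0.0285). Acaa1a, the peroxisomal thiolase, was 2.19-fold lower (-1.13 ± 0.34, adjusted p = 0.04); its 3 probes agreed in this contrast (-0.71 to -1.13).

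**Figure D2:**
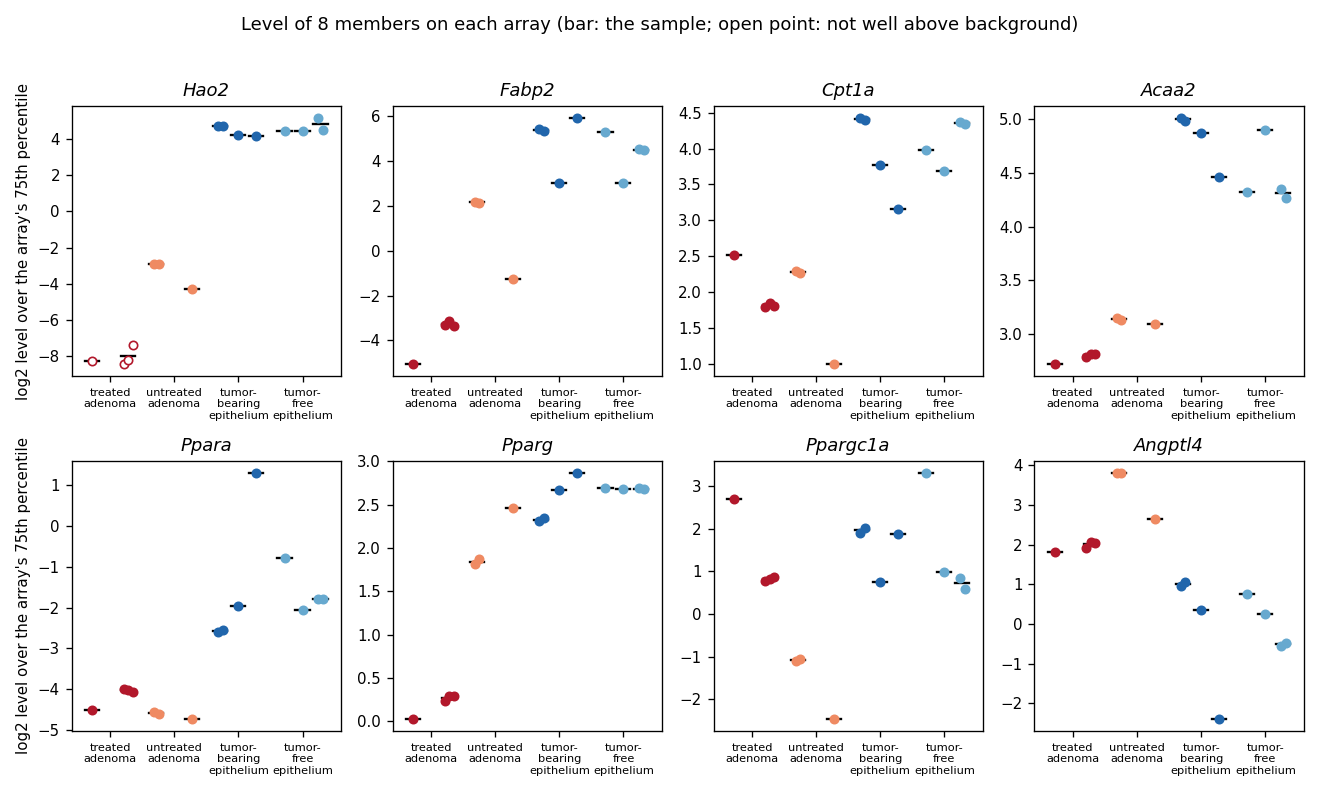
Log2 level relative to the 75th percentile of the array for 8 members on each of the 15 arrays (points) and in each of the 10 samples (bars), by group from treated adenoma on the left to tumor-free epithelium on the right; open points were not well above background. Hao2 forms 3 tiers, with the treated adenomas near -8, the untreated adenomas at -2.90 and -4.30, and the epithelium between 4.16 and 4.84.

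Among the receptors, 2 of 4 genes were lower in adenoma. Ppara, the receptor that drives fatty acid oxidation in liver, had levels of -4.52 and -4.04 in treated and -4.60 and -4.73 in untreated adenomas, against -2.58, -1.97 and 1.30 in tumor-bearing and -0.78, -2.05 and -1.78 in tumor-free epithelium. The adenoma samples formed a tight low cluster and did not overlap the epithelium, in which array 4 of the tumor-bearing group was highest. Ppara was 8.94-fold lower in adenoma (-3.16 ± 0.69 SE, adjusted p = 0.00959, limma), and the difference was -2.56 without that array (adjusted p = 0.000907).

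Pparg, best known from adipocytes and also a receptor of differentiated colon epithelium, lay at 0.03 and 0.27 in treated and 1.84 and 2.46 in untreated adenomas, against 2.33, 2.67 and 2.86 in tumor-bearing and 2.69, 2.68 and 2.69 in tumor-free epithelium. Untreated adenoma array 3 (2.46) lay within the epithelium range, and the other 3 adenoma samples lay below it. Over all adenomas Pparg was 2.83-fold lower (-1.50 ± 0.28, adjusted p = 0.00424, limma). This mean joins 2 unlike groups. Against the tumor-bearing epithelium, the untreated adenomas differed by -0.47 ± 0.39 and were not called (adjusted p = 0.448, limma). The treated adenomas differed by -2.47 ± 0.39 (adjusted p = 0.00271, limma). Ppard differed by -0.54 ± 0.30 (adjusted p = 0.211) and was well above background on 5 of 7 adenoma and 5 of 8 epithelium arrays. Ppargc1a differed by -1.60 ± 0.62 (adjusted p = 0.0913). Its treated adenoma samples lay above the untreated ones, a difference that did not pass the correction (below).

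Of the 4 other PPAR targets, Angptl4 was higher in adenoma, and none was lower. Angptl4 encodes a secreted inhibitor of lipoprotein lipase that is also induced by hypoxia. Its levels were 1.81 and 2.01 in treated and 3.80 and 2.64 in untreated adenomas, against 1.00, 0.35 and -2.39 in tumor-bearing and 0.77, 0.25 and -0.51 in tumor-free epithelium. Every adenoma sample lay above every epithelium sample, and the difference was 2.66 ± 0.63 (SE; 6.30-fold; adjusted p = 0.0151, limma); without array 4 of the tumor-bearing epithelium, the lowest sample, it was 2.15 (adjusted p = 0.00386).

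Pdk4, the kinase that shuts pyruvate dehydrogenase when fat is burned, differed by 1.94 ± 0.76 without passing the threshold (adjusted p = 0.0947). Its levels were -1.84 and -0.86 in treated and -2.77 and -3.86 in untreated adenomas, against -5.21, -3.38 and -3.71 in tumor-bearing and -2.96, -3.47 and -6.91 in tumor-free epithelium. Its spot on untreated adenoma array 2 was flagged as an outlier and left out. Acot1, a cytosolic acyl-CoA thioesterase gene, differed by 0.98 (adjusted p = 0.0723) and the mitochondrial uncoupling protein gene Ucp2 by -1.15 (adjusted p = 0.184), while its other 2 probes, which were dimmer, gave 0.37 and -0.31.

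**Figure D3:**
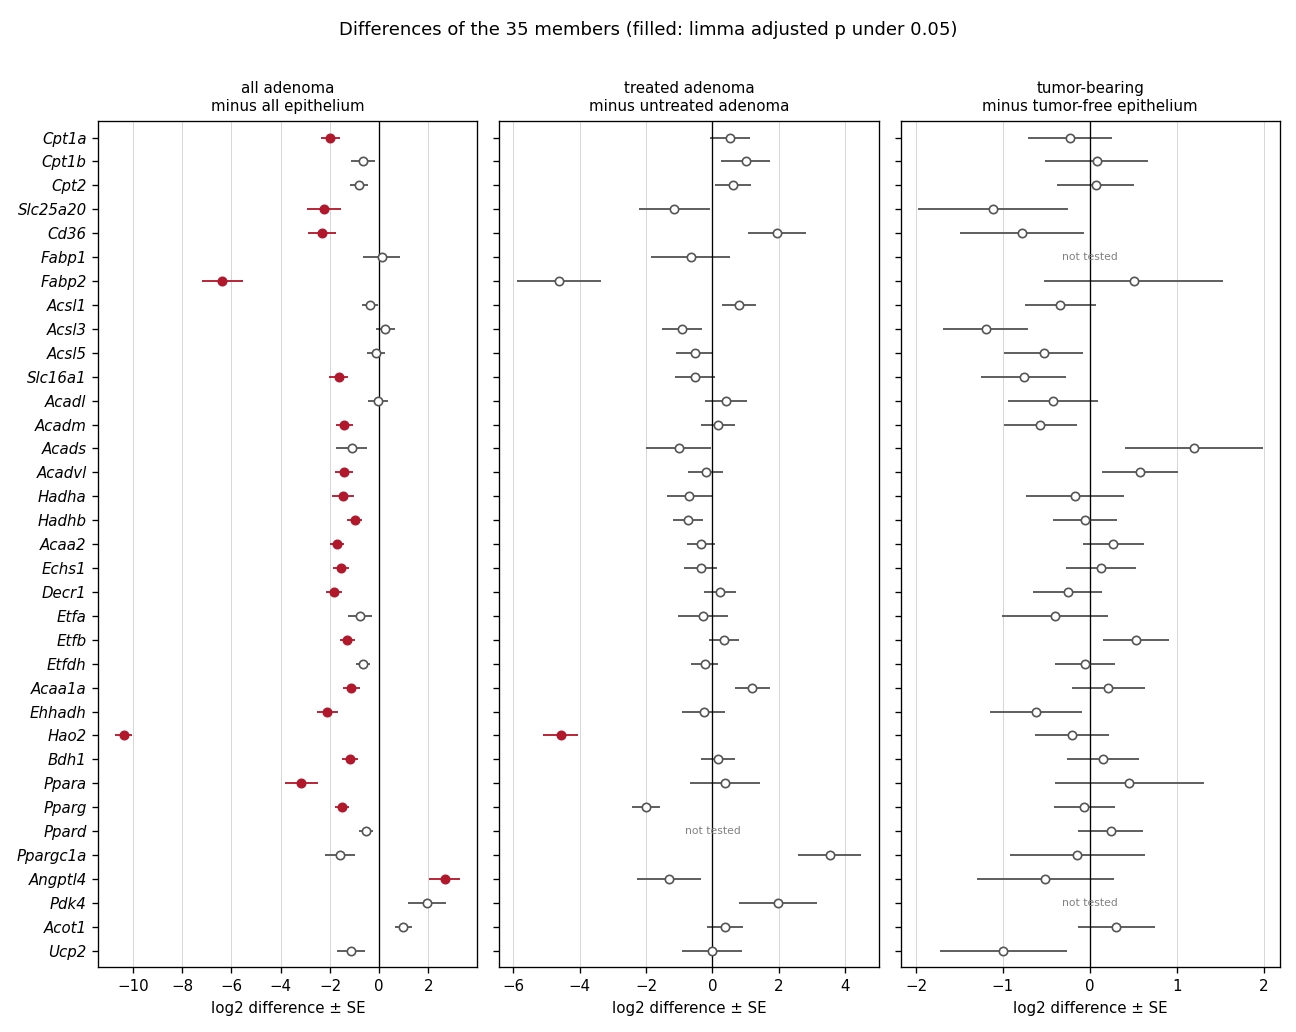
Log2 differences of the 35 members with their standard errors in 3 comparisons (all adenoma minus all epithelium, treated minus untreated adenoma, and tumor-bearing minus tumor-free epithelium; each panel has its own scale); filled points passed an adjusted p of 0.05 in limma. The left panel holds 19 filled points below 0 and 1 above, the middle panel only Hao2, and the right panel none.

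Each kind of adenoma was also set against the tumor-bearing epithelium, which both comparisons share. In untreated adenomas 10 of 34 members tested were lower and 1 was higher, while 6.65% of all 17403 features tested were lower and 5.32% higher. The lower genes were Hao2, Fabp2, Cpt1a, Cd36, Acaa2, Decr1, Etfb, Acaa1a, Ppara and Ppargc1a, and Angptl4 was higher. Hao2 was 253-fold lower (log2 difference -7.98 ± 0.48 SE, adjusted p = 1.63e-05, limma). Fabp2 differed by -4.32 ± 1.16 (adjusted p = 0.039), Ppara by -3.58 ± 0.97 (adjusted p = 0.0396) and Cpt1a by -2.14 ± 0.54 (adjusted p = 0.0316).

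Cd36 was 7.43-fold lower in untreated adenomas than in tumor-bearing epithelium (-2.89 ± 0.80, adjusted p = 0.0436, limma), and Angptl4 11.9-fold higher (3.57 ± 0.89, adjusted p = 0.0294). Acaa1a (-1.83 ± 0.47, adjusted p = 0.0342), Decr1 (-1.83 ± 0.44, adjusted p = 0.0257), Etfb (-1.74 ± 0.42, adjusted p = 0.0261) and Acaa2 (-1.66 ± 0.39, adjusted p = 0.0234, limma) were also lower. None of the 11 called members overlapped between the groups, but neither did 4498 lower and 3532 higher features of all 17403 tested. The other 2 Acaa1a probes gave smaller differences, -0.32 and -0.84. Ppargc1a, at -1.07 and -2.45 in untreated adenomas against 1.96, 0.75 and 1.88 in tumor-bearing epithelium, was 9.80-fold lower (-3.29 ± 0.87, adjusted p = 0.0369). Its second probe gave -1.78. The count of 11 was 1 without untreated adenoma array 3 and 5 without array 2 of the tumor-bearing epithelium, and 2 without the near-identical pair.

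In treated adenomas 7 of 33 members tested were lower than in the tumor-bearing epithelium and none was higher, against 7.04% lower and 6.6% higher among all 17003 features tested. Hao2 was 1623-fold lower by a floor-based estimate (adjusted p of the measured difference = 2.77e-06, limma). The estimate sets the tumor-bearing mean against, on each treated array, the lowest signal of any probe well above background or the probe's own signal, whichever was higher. It is not a strict limit, because a probe can read above that floor without being well above background. On array 4 of the tumor-bearing epithelium, Ppard at -4.83 was not well above background, while Fabp1 at -5.28 was. Fabp2 was 490-fold lower (-8.94 ± 1.16, adjusted p = 0.000962) and Pparg 5.53-fold lower (-2.47 ± 0.39, adjusted p = 0.00271). These 3 genes were called under all alternatives in which they were tested.

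The other 4 lower genes in treated adenomas belong to mitochondrial oxidation: Acaa2 (-2.01 ± 0.39, adjusted p = 0.0081), Acadvl (-1.83 ± 0.49, adjusted p = 0.0345), Echs1 (-1.78 ± 0.45, adjusted p = 0.0264) and Decr1 (-1.60 ± 0.44, adjusted p = 0.0384, limma). Cpt1a (-1.62, adjusted p = 0.0769), Ppara (-3.19, adjusted p = 0.0551), Angptl4 (2.26, adjusted p = 0.121), Pdk4 (2.75, adjusted p = 0.118), Cd36 (-0.95, adjusted p = 0.449) and Ppargc1a (0.23, adjusted p = 0.877) did not pass. Without treated adenoma array 1 the count was 4, without array 2 of the tumor-bearing epithelium 4, without both arrays of the near-identical pair 4, and without array 4 of the tumor-bearing epithelium 14. In that last case the share of all features called rose too, from 13.6% to 22.6%. Whether a member differs between the 2 kinds of adenoma is answered only by their direct comparison, which follows.

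The comparison of treated with untreated adenomas asked what a week of both drugs did to these genes in adenoma cells. Of 34 members tested, 1 was lower, Hao2, and none was higher; 0.102% of all 17629 features tested were lower and 0.119% higher. Hao2 was 6.42-fold lower in treated adenomas by the same floor-based estimate (measured log2 difference -4.56 ± 0.53 SE, adjusted p = 0.0136, limma). Its levels were -8.28 and -8.03 in treated and -2.90 and -4.30 in untreated adenomas. Neither treated sample was well above background and both untreated samples were. Hao2 was thus tested through the untreated arrays alone. The treated readings lie at the floor, so the SE and adjusted p rest partly on readings below background. Adjusted p ran from 8.58e-06 to 0.125 over the alternatives in which Hao2 was tested. The call was lost at a similar difference without treated adenoma array 1 (-4.43, adjusted p = 0.108), without treated adenoma arrays 2, 3 and 4 (-4.69, adjusted p = 0.125), without the near-identical epithelium pair (-4.56, adjusted p = 0.0717) and with only the adenomas fitted (-4.56, adjusted p = 0.0574). It was lost at a smaller difference with normexp background correction (-2.58, adjusted p = 0.0771) and in the authors' value table (-2.89, adjusted p = 0.0514). Over the 11 of 13 colonocyte markers tested in this contrast, none was called and the median difference was -1.37; its part in the Hao2 result was not tested. Within the scan dates that held both groups, the Hao2 differences were -5.39 and -3.53.

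A further 4 members had an unadjusted p under 0.05 without passing the correction. With Hao2 these were 5 of 34 members tested, a share near that of all features (2111 of 17629 tested). Pparg lay at 0.03 and 0.27 in treated and 1.84 and 2.46 in untreated adenomas, without overlap (-2.00 ± 0.43 SE, adjusted p = 0.124, limma). With 2 samples a side such separation is common. Of all 17629 features tested, 4565 were higher and 3654 lower without overlap, and of 34 members 9 and 10. Fabp2 lay at -5.04 and -3.27 in treated and 2.17 and -1.24 in untreated adenomas (-4.62 ± 1.27, adjusted p = 0.226). Ppargc1a went the other way, at 2.70 and 0.83 in treated and -1.07 and -2.45 in untreated adenomas (3.53 ± 0.96, adjusted p = 0.223), and its second probe gave 1.95.

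Acaa1a differed by 1.20 ± 0.52 (adjusted p = 0.401, limma), but its other 2 probes gave -1.50 and -1.06, so its direction is not settled. Cd36 lay at -2.87 and -3.07 in treated and -5.89 and -3.94 in untreated adenomas (1.95 ± 0.88, adjusted p = 0.42). Cpt1a (0.52 ± 0.60, adjusted p = 0.787), Ppara (0.38 ± 1.06, adjusted p = 0.927), Angptl4 (-1.31 ± 0.98, adjusted p = 0.641), Pdk4 (1.97 ± 1.17, adjusted p = 0.55) and Fabp1 (-0.65 ± 1.19, adjusted p = 0.88) were not called. The second Cpt1a probe gave -0.13. The 95% interval of the Cpt1a difference ran from -0.81 to 1.85, which spans differences of either sign. Ppard was not tested here or against the tumor-bearing epithelium, because none of these groups was above background on all its arrays. The median difference of the members was -0.22, against 0.05 over all features tested.

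The 2 epithelia, from tumor-bearing and tumor-free mice, were compared to ask whether a tumor elsewhere in the colon goes with altered levels in normal epithelium. None of 33 members tested was called by limma, as was 0% of all 17648 features tested; 1 member and 501 features had an unadjusted p under 0.05. That member was Acsl3, an acyl-CoA synthetase gene, at 1.63, 2.77 and 1.09 in tumor-bearing and 2.99, 2.79 and 3.30 in tumor-free epithelium (-1.20 ± 0.49 SE, adjusted p = 0.994). Its 2 groups did not overlap, but the values nearest each other, 2.77 and 2.79, belong to the near-identical pair. Of all 17648 features tested, 741 were higher and 555 lower without overlap. Hao2 differed by -0.20 ± 0.43 with a 95% interval of -1.16 to 0.75, Cpt1a by -0.23 ± 0.49, Pparg by -0.06 ± 0.35, Ppara by 0.45 ± 0.86 and Ppargc1a by -0.14 ± 0.77, all with adjusted p of 0.994 or above. Fabp2 differed by 0.50 ± 1.03, Cd36 by -0.78 ± 0.71, Angptl4 by -0.51 ± 0.79 and Ppard by 0.24 ± 0.37, likewise with adjusted p of 0.994. These intervals are wide, and equal levels were not shown.

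Other genes of the same pathways were described from 2 lists. Of 37 further fatty acid oxidation genes, 35 were tested in adenoma against epithelium, 20 were lower and 3 higher, where 12.6% of all features tested were lower and 9.14% higher. Their median difference was -1.26, and the share of higher genes (3 of 35) was near that of all features. Acss2, which makes acetyl-CoA from acetate, was 11.4-fold lower (-3.51 ± 0.36 SE, adjusted p = 0.000124, limma), and Pex11a, a factor of peroxisome division, 3.90-fold lower (-1.96 ± 0.31, adjusted p = 0.00183). Acat1, the thiolase of ketone body metabolism, was 3.17-fold lower (-1.66 ± 0.27, adjusted p = 0.00202), and Crat, the carnitine acetyltransferase, 2.75-fold lower (-1.46 ± 0.29, adjusted p = 0.00657).

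Acox2, the peroxisomal oxidase of branched-chain and bile acid intermediates, was 7.67-fold higher in adenoma (2.94 ± 0.45, adjusted p = 0.00145, limma). Acot12, a cytosolic acetyl-CoA thioesterase gene, was 3.00-fold higher by a floor-based estimate (adjusted p = 0.000191, limma). It was well above background on 6 of 7 adenoma and 0 of 8 epithelium arrays. Without the near-identical pair this list had 6 lower and 2 higher genes, without untreated adenoma array 3 it had 10 and 2, and without treated adenoma array 1 it had 9 and 2.

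Of 35 further PPAR targets and partners, 31 were tested, 7 were lower and 3 higher in adenoma, against the same 12.6% lower and 9.14% higher of all features tested. Their median difference was -0.46, and the share of higher genes (3 of 31) was near that of all features. Ppargc1b, a coactivator related to PGC-1α, was 5.87-fold lower (-2.55 ± 0.31 SE, adjusted p = 0.000339, limma), and the coactivator gene Ncoa1 2.85-fold lower (-1.51 ± 0.31, adjusted p = 0.00699). Lpl, the lipoprotein lipase that ANGPTL4 inhibits, was 2.82-fold lower (-1.50 ± 0.36, adjusted p = 0.0158), and the pyruvate dehydrogenase kinase gene Pdk2 4.03-fold lower (-2.01 ± 0.42, adjusted p = 0.00796). Fabp6, the ileal bile acid-binding protein, was 4.20-fold lower by a floor-based estimate (adjusted p = 0.0142, limma). It was well above background on 0 of 7 adenoma and 7 of 8 epithelium arrays. Plin5, a lipid droplet protein of oxidative tissues, was 10.5-fold higher (3.39 ± 0.36, adjusted p = 0.000164). Without the near-identical pair 4 genes of this list were lower and 2 higher, without untreated adenoma array 3 the counts were 3 and 1, and without treated adenoma array 1 they were 4 and 2. No gene of either list was called between treated and untreated adenomas (8 had an unadjusted p under 0.05). These 8 were 5 of 34 fatty acid oxidation genes tested and 3 of 29 PPAR targets and partners tested. Over all features tested in that contrast, 2111 of 17629 had such a p.

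Scan dates were shared by some groups and allowed the members' differences to be recomputed within a date. Between untreated adenoma and tumor-bearing epithelium the median of the members was -1.41 and -1.45 within the 2 dates that held both, against -0.27 and -0.32 over all features. Between treated adenoma and tumor-bearing epithelium it was -1.56 and -0.99, against -0.29 and 0.12. Between treated and untreated adenomas it was 0.10 and -0.17, against 0.10 and 0.03. The tumor-free epithelium shared no date with another group, so date and group cannot be told apart there. Each of these values rests on 1 or 2 arrays a side. For untreated adenoma against tumor-bearing epithelium the 2 dates are not independent. Untreated arrays 1 and 2, and tumor-bearing arrays 1 and 3, each counted as 1 sample and were split over these dates.

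The 5 named genes outside the list whose levels followed Hao2 most closely over the 10 samples, among 18708 features, were Sycn (Pearson's r 0.994), Pck1 (0.991), Gsdmc3 (0.990), Man1a (0.989) and Slc26a3 (0.989). Pck1, the enzyme that commits carbon to gluconeogenesis, lay at -4.03 and -5.46 in treated and -1.26 and -2.41 in untreated adenomas, against 5.06, 4.86 and 4.85 in tumor-bearing and 5.07, 4.96 and 4.09 in tumor-free epithelium. Slc26a3, the chloride-bicarbonate exchanger of surface colonocytes, lay at -6.26 and -6.23 in treated and -1.83 and -4.51 in untreated adenomas, against 5.70, 6.40 and 4.06 in tumor-bearing and 5.64, 6.33 and 5.87 in tumor-free epithelium. The genes were picked for this likeness, and the second untreated adenoma sample of Slc26a3 lay nearer the treated samples than the other untreated one. Among the members, r with Hao2 was highest for Acaa2 (0.955), Fabp2 (0.942) and Echs1 (0.920) and lowest for Acot1 (-0.770). These correlations describe samples that share the split between adenoma and epithelium, which sets most of their size.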

How the data were processed

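RNA of microdissected cells was amplified in 2 rounds and hybridized to 1-colour Agilent mouse arrays, per the labels' protocols. The deposited scanner files, made with Agilent Feature Extraction 9.5.3 per the submitters' processing notes, hold processed intensity and spot flags; the authors' value table holds log2 values, and no source used here states their normalization. Its 4 tumor-bearing columns matched those scanner files in reverse order and were paired by that match.

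Here log2 processed intensities were scaled to the 75th percentile of each array (45018 spots, 1639 controls left out); flagged spots were dropped and spots of a probe averaged. Near-identical arrays were averaged. limma 3.58.1 in R 4.3.3 was fitted over all 4 groups (residual df 6). A feature was tested where at least 1 group compared was above background on all its unflagged arrays. A gene at the floor in the other group was therefore still tested, with an SE and p-value that rest partly on readings below background. The p-values were adjusted over all features tested. On simulated data for adenoma against epithelium (18743 features), 6% of 50 changes of 1, 58% of 50 changes of 2 and 86% of 50 changes of 4 on the log2 scale were called, with 8 false calls. Only a small part of the simulated features was changed, while 21.8% of features were called in the real comparison. The correction was therefore stricter in the simulation, and these shares do not carry over to the real comparison.

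The members, lists and tests were chosen with earlier results of these data known. Values are named for every called member and for Ppara, Pparg, Ppard, Ppargc1a, Cpt1a, Hao2, Angptl4, Pdk4, Cd36 and Fabp1; for at most 6 called genes of each pathway list by the highest moderated t; and for the 5 genes most like Hao2. Some genes that the rule names are not reported here.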

Additional observations from a re-analysis of the deposited data

How the results depend on the processing

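No called member reversed its sign under any alternative that was run. Runs on separate arrays count near-identical arrays as independent, except with RNA as a random block. Their higher counts therefore do not show that the reported counts are cautious. Counting arrays separately gave more calls: of untreated adenoma minus tumor-bearing epithelium (11 as reported), 21 as separate samples, 23 with scan date as a block, 22 with slide as a random block and 17 with RNA as a random block; of treated adenoma minus tumor-bearing epithelium (7), 21, 21, 21 and 18; and of treated minus untreated adenoma (1), 6, 8, 7 and 4. Deviations of same-numbered arrays from their group means correlated with r -0.19 to 0.46 (21 pairs, median 0.05, 7 over 0.1). Arrays of different numbers gave r -0.45 to 0.34 (63 pairs, median -0.001, 11 over 0.1). These values cannot decide whether the numbers pair the samples, and the reported counts were not paired. With the replicate block on separate arrays the counts were 27 for all adenoma minus all epithelium, 24, 21 and 7 for the 3 others above, and 0 between the epithelia.

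For untreated adenoma minus tumor-bearing epithelium the count was 6 with no filter on dim probes, 5 with the mean of all probes and 2 with only the compared groups fitted; it was 3 without tumor-bearing arrays 1 and 3, 3 without untreated arrays 1 and 2, and 2 without the near-identical pair across groups. For treated adenoma minus tumor-bearing epithelium it was 16 with array weights, 4 with only the compared groups and 4 without that pair. For treated minus untreated adenoma it was 0 with normexp, the authors' value table, only the compared groups and without that pair. With a filter on both groups it was also 0, but Hao2 was not tested there. For all adenoma minus all epithelium it was 11 without untreated arrays 1 and 2 and 10 without the pair. Leaving out each array in turn gave 13 to 21 members for all adenoma, 1 to 16 for untreated and 4 to 14 for treated adenoma against tumor-bearing epithelium, and 0 to 1 between adenomas. Where an arm kept 1 sample, it was assumed to vary like the other groups.

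The count between the epithelia was 0 under every alternative run. Scan date as a block could not be estimated for contrasts with tumor-free epithelium and was not run there. Calls over all features varied likewise, from 2464 without the near-identical pair to 9334 with the replicate block for all adenoma minus all epithelium (4117 as reported), and from 1 (without treated array 1, among others) to 3307 with scan date as a block between adenomas (39 as reported). The number of samples, at 2 or 3 a group, limits precision. The pathway list counts without single arrays were chosen after seeing the data.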
